A study of Mus musculus with 24 samples.

Results

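The 9 chromodomain helicase DNA-binding genes of the mouse, Chd1 to Chd9, were followed through 24 RNA sequencing libraries from cultured cortical neurons. They were chosen by gene symbol, as 9 of the 55177 genes to which the quantified transcripts could be assigned; the rule itself uses no expression value. All 9 passed the low-count filter of every fit. The study examined the BAF chromatin remodelling complex and its subunit Smarcc2 in neurons at rest and after depolarization. All cultures came from mouse cortex at embryonic day 16.5, the cortex of each embryo being the study's biological replicate, and all were silenced overnight with 1 µM tetrodotoxin and 100 µM D-AP5, also those that were then depolarized with 50 mM KCl for 30 min.

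Cultures at 7 days in vitro (DIV7) were wild-type neurons in 0.1% DMSO, at rest (n = 2) or with KCl (n = 2), and poly(A) selection preceded their sequencing. Cultures at DIV18 carried CRISPR guide RNAs and were sequenced from total RNA depleted of ribosomal RNA. NT cultures carried a non-targeting guide (rest n = 2, KCl n = 2). The other DIV18 cultures carried a Smarcc2 knockout guide together with an empty vector (rest n = 3, KCl n = 3), with wild-type Smarcc2 (the WT addback; rest n = 2, KCl n = 3), with Smarcc2 S586E (rest only, n = 3) or with Smarcc2 S586A (KCl only, n = 2). S586E and S586A replace the same serine by glutamate or alanine. The promoter that drives the added Smarcc2 and the share of cells that carried each guide are not given in the sources used here. Day in culture cannot be told apart from the RNA selection or from the guides, so levels at DIV7 and DIV18 are set side by side without a test.

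CHD proteins share a pair of chromodomains, which bind histone tails or DNA, and a SNF2-type ATPase that slides, spaces or evicts nucleosomes. Chd1 and Chd2 form the first subfamily, which is linked to transcription elongation. Chd3, Chd4 and Chd5 carry PHD fingers and are alternative motor subunits of the NuRD complex, which pairs nucleosome remodelling with histone deacetylation; Chd5 is the most neuron-restricted of them. Chd6, Chd7, Chd8 and Chd9 form the third subfamily, marked by BRK domains. CHD2, CHD7 and CHD8 are human disease genes of brain development, for epilepsy, CHARGE syndrome and autism.

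The 9 genes share the ATPase motor, and the 45 coding bases around its DEAH box, a motif of ATP hydrolysis, are shown to let the subfamilies be seen. Each run was read on the coding strand of GRCm38 from the gene's protein-coding transcript with the most counts, and the capitals mark the 4 codons of the DEAH box. The runs lie inside 1 exon each, at chr17:15738506-15738550 (Chd1, plus strand, exon 14), chr7:73490601-73490645 (Chd2, minus, exon 16), chr11:69356944-69356988 (Chd3, minus, exon 16), chr6:125108746-125108790 (Chd4, plus, exon 17), chr4:152370592-152370636 (Chd5, plus, exon 16), chr2:161018062-161018106 (Chd6, minus, exon 13), chr4:8828328-8828372 (Chd7, plus, exon 13), chr14:52219633-52219677 (Chd8, minus, exon 13) and chr8:90994556-90994600 (Chd9, plus, exon 14).
Chd1: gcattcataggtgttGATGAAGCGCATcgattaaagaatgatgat
Chd2: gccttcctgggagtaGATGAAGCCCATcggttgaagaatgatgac
Chd3: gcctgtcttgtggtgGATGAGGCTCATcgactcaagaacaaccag
Chd4: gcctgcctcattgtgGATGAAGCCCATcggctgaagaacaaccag
Chd5: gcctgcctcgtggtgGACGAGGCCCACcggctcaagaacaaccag
Chd6: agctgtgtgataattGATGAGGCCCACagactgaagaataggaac
Chd7: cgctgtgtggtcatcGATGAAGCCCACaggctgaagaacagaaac
Chd8: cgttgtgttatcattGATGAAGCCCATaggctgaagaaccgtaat
Chd9: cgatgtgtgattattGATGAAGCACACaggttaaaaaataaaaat
Chd1 and Chd2 shared 80.0% of the bases, pairs of the NuRD motors 82.2% to 86.7%, and pairs of the third subfamily 73.3% (Chd9 with Chd6 or Chd8) to 82.2% (Chd7 with Chd6 or Chd8). Pairs from different subfamilies reached 73.3% at most (Chd2 and Chd4). The least alike pair, Chd1 and Chd7, shared 48.9%.

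Libraries held 24536056 to 30135576 estimated counts at DIV7 and 14510199 to 24024959 at DIV18. Levels across samples are given as TMM-normalised CPM, counts scaled to a common library total, and genes were called at an adjusted p under 0.05 in edgeR's quasi-likelihood F test with Benjamini-Hochberg adjustment over all genes tested. Smarcc2 itself stood at 237 to 265 CPM in resting NT libraries and 47.1 to 64.1 with the knockout guide and vector. It stood at 756 to 816 in the resting WT addback and 1164 to 1276 with S586E. The labels name a knockout and addbacks, but give no order among NT, the WT addback and S586E. Under KCl Smarcc2 stood at 274 to 283 in NT, 47.6 to 60.0 with vector, 737 to 1089 in the WT addback and 1303 to 1340 with S586A. Of 6 early-response genes, all 6 were called higher with KCl at DIV7 and in the vector cultures, 4 in the WT addback and 1 in NT. Neuron markers summed to 4999 to 5037 CPM in resting NT libraries and 3939 to 4003 at DIV7, beside 1324 to 1573 and 495 to 564 CPM of astrocyte markers, so both kinds of marker were present at both ages. In these bulk libraries fewer cells of a type and less RNA per cell cannot be told apart.

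Chd3, Chd4, Chd5 and Chd8 made up most of the family's RNA at both ages. To compare genes, TPM values, which are per length, were summed per gene and expressed as a share of the family, counting transcripts of at least 1000 bases. In resting NT neurons at DIV18 the order was Chd4 (29.2% and 30.8% in the 2 libraries), Chd3 (26.6% and 27.8%), Chd5 (12.6% and 13.4%), Chd8 (11.3% and 11.4%), Chd6 (5.62% and 6.16%), Chd2 (4.13% and 4.96%), Chd9 (4.33% and 4.55%), Chd1 (2.63% and 2.68%) and Chd7 (0.711% and 1.12%). Chd2 and Chd9 overlapped between libraries and so had no order. The 3 NuRD motor genes thus held most of the family, and Chd7 was the scarcest member, with as few as 128 counts in a DIV18 library.

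At DIV7 the order at rest differed, with Chd3 first at 36.5% and 39.3%. Chd5 followed at 20.5% and 20.7%, ahead of Chd4 at 15.3% and 17.5%. Chd8 (10.5% and 11.4%), Chd2 (4.77% and 5.09%), Chd6 (3.70% and 4.01%), Chd9 (3.18% and 3.27%), Chd1 (1.82% and 1.84%) and Chd7 (0.311% and 0.350%) came after, with no overlap between neighbours. Counting all transcripts, the share of Chd9 at DIV7 was 11.2% on average in place of 3.23%, since a single short transcript carries much of its TPM, and the order of Chd3 and Chd4 in NT no longer exceeded the spread between libraries (24.9% and 26.0% on average). Counting all transcripts also placed Chd8 above Chd5 at both ages (14.96% against 14.05% at DIV7 and 14.99% against 11.30% in NT).

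**Figure D1:**
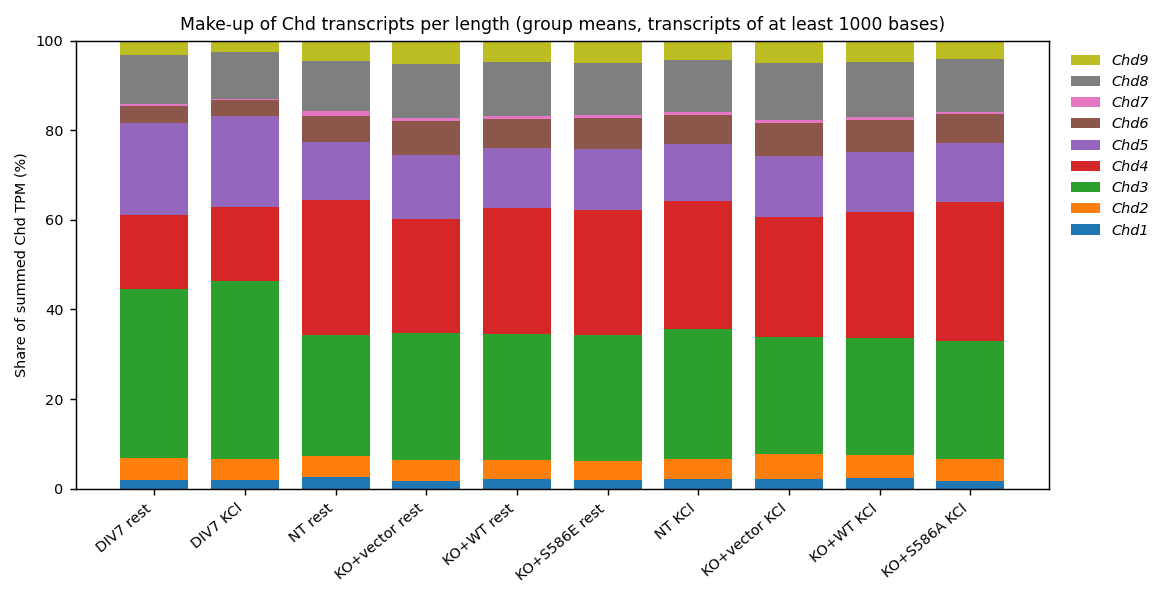
Share of the family's summed TPM (y axis, percent; transcripts of at least 1000 bases) held by each of the 9 genes in the 10 groups of libraries, as group means of 2 or 3 libraries. Chd3 and Chd5 take a larger part of the DIV7 bars (37.9% and 20.6% at rest) and Chd4 a larger part of the DIV18 bars (30.0% in resting NT).

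The annotated forms that held the counts also differed between the 2 kinds of library. Chd2-212, a transcript of 5289 bases annotated as a target of nonsense-mediated decay, took 12.4% to 19.9% of the Chd2 counts in the 4 DIV7 libraries and 0% to 6.75% in the 20 DIV18 libraries. Chd9-206, a non-coding processed transcript of 759 bases at the 5′ end of Chd9 (chr8:90828827-90891521), took 14.2% to 24.3% at DIV7 and 1.06% to 4.65% at DIV18. The ranges did not overlap for either form. Retained-intron forms of Chd8 took 3.80% to 6.96% of its counts at DIV7 and 1.12% to 3.33% at DIV18. Chd3, Chd4, Chd5 and Chd7 held at least 95.9% of their counts in protein-coding forms in every library. Chd6 was almost wholly Chd6-201, with 92.7% to 95.3% at DIV7 and 87.3% to 93.2% at DIV18. The split between long coding forms that share most exons was unstable: Chd9-202 ranged from 15.4% to 58.3% of the Chd9 counts over the DIV18 libraries, and Chd7-201 from 0% to 64.6% of those of Chd7. How far such a split reflects the assignment of shared reads was not tested.

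**Figure D2:**
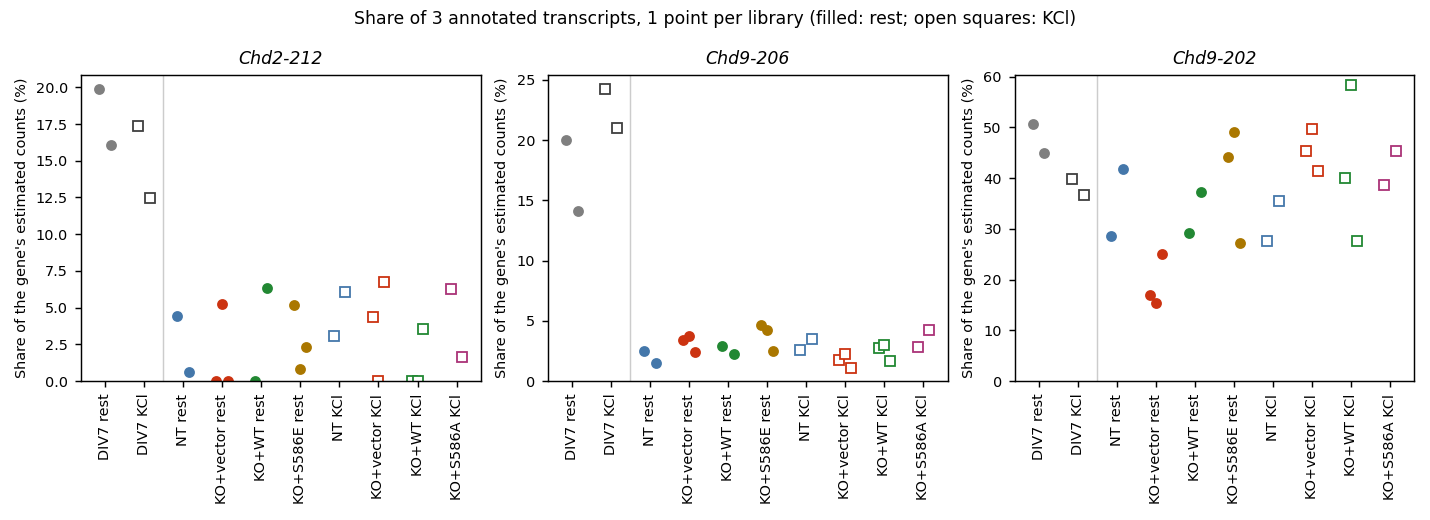
Share of a gene's estimated counts (y axis, percent) assigned to Chd2-212, Chd9-206 and Chd9-202 in each library, grouped along the x axis. The DIV7 libraries, left of the line, stand above all DIV18 libraries for Chd2-212 and Chd9-206, whereas Chd9-202 varies from 15.4% to 58.3% within DIV18.

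**Figure D3:**
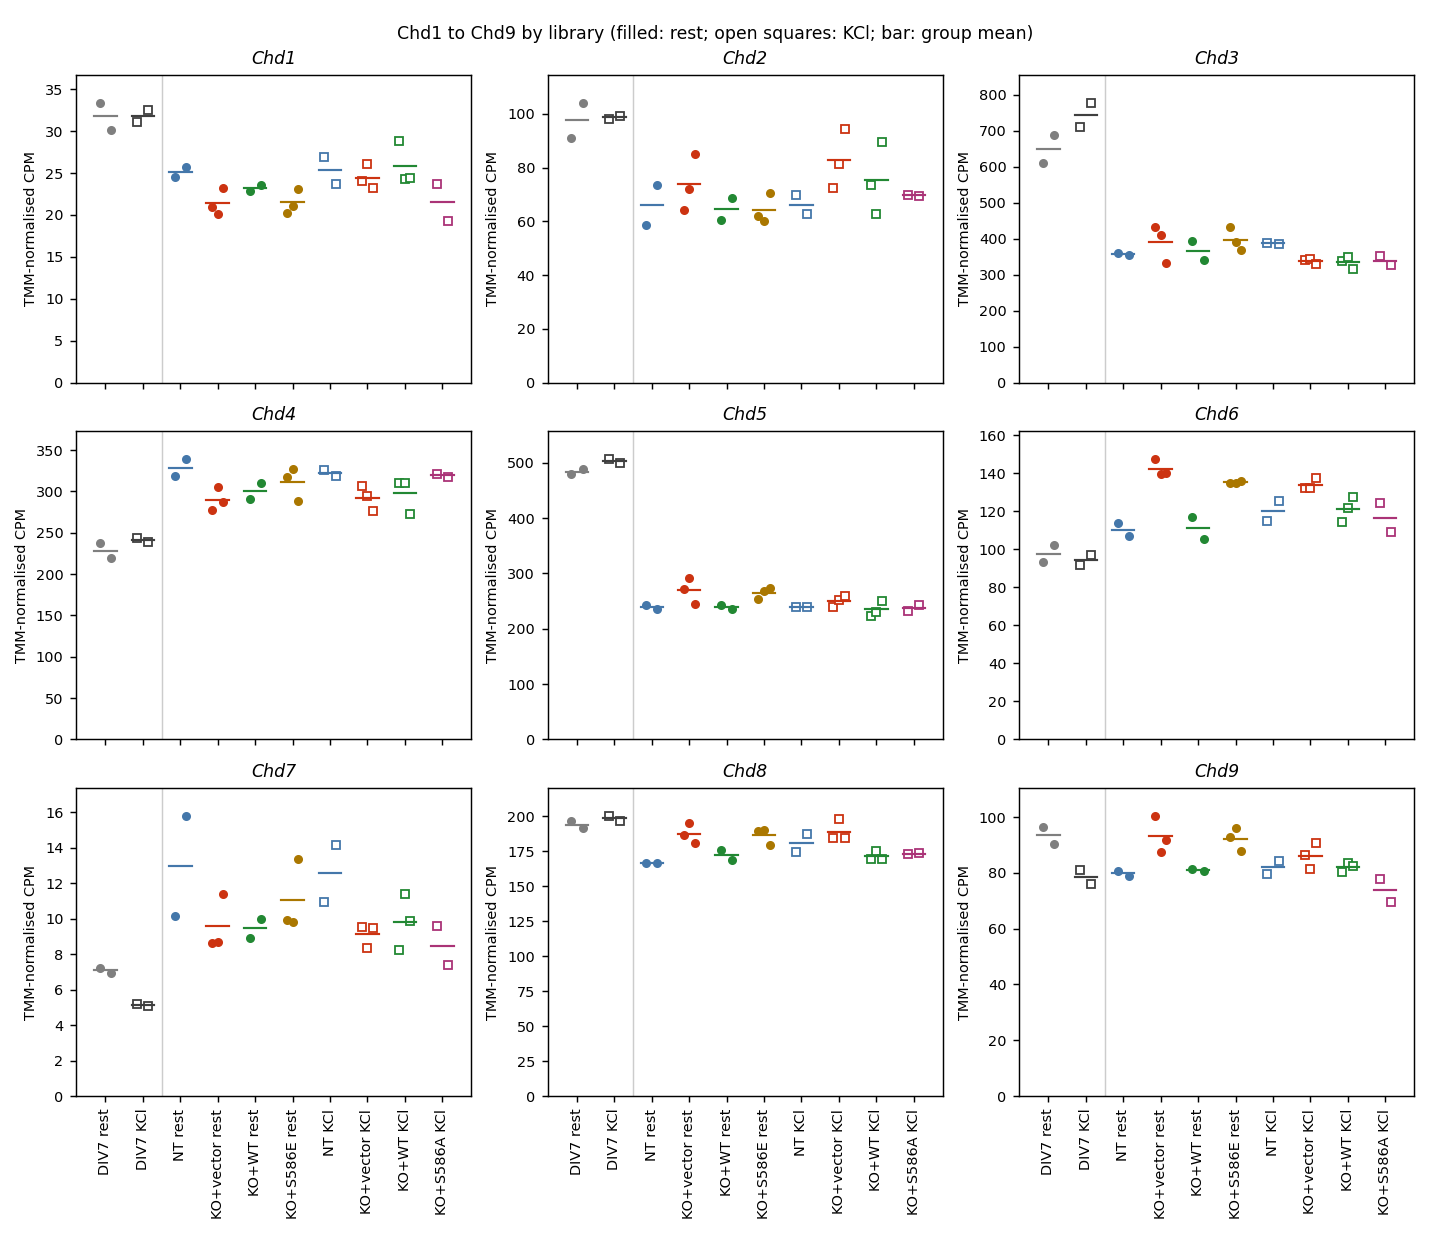
TMM-normalised CPM (y axis) of the 9 genes in each library, with group means as bars. The grey line parts DIV7 from DIV18, which were normalised separately, so heights are comparable only on the same side of it. Resting vector (139 to 147 CPM) and S586E (135 to 136 CPM) libraries stand above resting NT (107 to 114 CPM) for Chd6.

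Depolarization at DIV7 addressed the response of naive neurons to activity. Chd9 and Chd7, both of the third subfamily, were called lower after 30 min of KCl, and no member was called higher. Of all 19822 genes tested 17.0% were called, and 9.67% were called lower, so 2 of 9 members is near the background. Chd9, a remodeller of the third subfamily with less known function than its relatives, stood at 96.6 and 90.3 CPM at rest and at 81.0 and 76.0 CPM with KCl. Both KCl libraries were below both resting libraries, with a log2 fold change of -0.25 (SE 0.0587, adjusted p = 0.0288, edgeR). Chd7, a regulator of enhancers in progenitors and oligodendrocyte precursors, stood at 7.23 and 6.93 CPM at rest and at 5.17 and 5.10 CPM with KCl. Its libraries did not overlap either, with a log2 fold change of -0.46 (SE 0.126, adjusted p = 0.0479, edgeR), on 140 to 206 counts a library. Chd3, Chd4 and Chd5, which were not called, also did not overlap and lay higher with KCl. How many of all genes separate between 2 and 2 libraries was not counted.

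Chd3, the most abundant member at DIV7 and a NuRD motor, missed the threshold in the other direction. It stood at 610 and 687 CPM at rest and at 711 and 778 CPM with KCl, a log2 fold change of 0.20 (SE 0.0661, adjusted p = 0.0844, edgeR). The remaining 6 members had log2 fold changes with 95% intervals that included 0. The 2 calls and the miss all lay near the threshold. Chd9 passed under 6 of 10 alternative settings and Chd7 under 2, while Chd3 passed under 6. Chd9 was lost without either resting library or the second KCl library (adjusted p 0.05004 to 0.149, edgeR), and Chd7 without any 1 of the 4 (0.120 to 0.180). With offsets for the effective length of the forms present, Chd9 stood at 0.07 (adjusted p = 0.782), whereas with protein-coding transcripts alone it stood at -0.42 (adjusted p = 0.00650).

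The forms of Chd9 did not move alike. The short form Chd9-206 received 551 and 317 estimated counts at rest and 582 and 439 with KCl, and its share of the Chd9 counts was 20.04% and 14.2% at rest and 24.3% and 21.0% with KCl. The long coding form Chd9-202 received 1393 and 1007 counts at rest and 955 and 764 with KCl. Astrocyte markers summed to 495 to 564 CPM at rest and 474 to 479 with KCl, with 2 of 6 called lower (Gfap and Slc1a3). Proliferation markers summed to 13.3 to 14.7 CPM at rest and 15.5 to 16.9 with KCl. The part of these cells in the values of Chd7 and Chd9 was not tested.

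Depolarization at DIV18 called no member in any of the 3 constructs that were measured in both states, by edgeR or by DESeq2. In NT, where 0.00955% of the 20940 genes tested were called, the members' log2 fold changes ran from -0.05 to 0.12 and none had an unadjusted p under 0.05. In the vector cultures (0.0716% of genes called) they ran from -0.21 to 0.19, with 1 member under an unadjusted p of 0.05. That member was Chd3, at 431, 411 and 333 CPM at rest and 340, 342 and 331 CPM with KCl (log2 fold change -0.21, adjusted p = 0.402, edgeR), so that the third resting library lay among the depolarized ones. In the WT addback (0.0430% of genes called) they ran from -0.13 to 0.22, none with an unadjusted p under 0.05.

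The differences between these responses were tested as such, and none was called for a member. The response of the vector cultures minus that of NT (0% of genes called, 1845 at an unadjusted p under 0.05 and 7 called by DESeq2) was -0.33 for Chd3 (adjusted p = 0.519, edgeR). The response of the WT addback minus that of the vector cultures (0% of genes called, 768 at an unadjusted p under 0.05 and 1 called by DESeq2) was 0.21 for Chd6, with an unadjusted p of 0.0486 that did not survive adjustment in edgeR. The response at DIV7 minus that of NT at DIV18 (1.82% of 22459 genes called) was -0.27 for Chd9 (SE 0.115, adjusted p = 0.334, edgeR). The fall of Chd9 at DIV7 is thus not shown to differ from its response at DIV18, which was 0.04 in NT.

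On loss of Smarcc2 at rest, Chd6 was called higher. Chd6 is a member of the third subfamily whose gene spans chr2:160946978-161109075 on the minus strand (GRCm38), and its long transcript encodes 2711 residues. It stood at 114 and 107 CPM in NT and at 147, 139 and 140 CPM with the knockout guide and vector. Every vector library lay above every NT library. The log2 fold change was 0.37 (SE 0.0754, 95% interval 0.21 to 0.53, adjusted p = 0.00789, edgeR). It was the only one of 9 members called, where 5.90% of all genes were called and 2.13% were called higher.

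The call held under 9 of 12 alternative settings, with log2 fold changes of 0.32 to 0.41 throughout. It was lost without the second resting NT library (adjusted p = 0.201), with offsets for effective length (0.0690) and with only the 2 groups compared in the fit (0.0686, all edgeR).

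Among the other members of the third subfamily, Chd8, the autism-linked gene, stood at 167 and 167 CPM in NT and 187, 195 and 181 CPM with vector (log2 fold change 0.17, adjusted p = 0.130, edgeR). Chd9 stood at 80.6 and 79.0 CPM in NT and 100.4, 87.3 and 91.6 CPM with vector (0.22, adjusted p = 0.0950, edgeR). For both genes the 2 groups did not overlap, though neither passed the test. How many of all genes separate in this way was not counted, here or in the other comparisons, so separation is a description only. With length offsets, where Chd6 was lost, Chd9 passed (0.43, adjusted p = 0.0164, edgeR). Chd7 pointed the other way, at 10.2 and 15.8 CPM in NT and 8.62, 8.70 and 11.4 CPM with vector (-0.44, adjusted p = 0.231, edgeR), and its groups overlapped. Without the first resting NT library this value was -0.73, and without the second -0.09.

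Of the NuRD motors, Chd5 stood at 242 and 235 CPM in NT and 272, 291 and 245 CPM with vector (0.18, adjusted p = 0.200, edgeR). Chd4, first in resting NT by share of TPM from transcripts of at least 1000 bases, stood at 318 and 339 CPM in NT and 278, 305 and 287 CPM with vector (-0.18, adjusted p = 0.193, edgeR). Neither gene's groups overlapped. Chd1, Chd2 and Chd3 had unadjusted p-values above 0.05. Of these, Chd1 also did not overlap, at 24.6 and 25.7 CPM in NT and 21.0, 20.2 and 23.2 CPM with vector (-0.23, adjusted p = 0.260, edgeR). The median log2 fold change over the 9 members was 0.16, beside 0.02 over all genes tested.

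Markers of other cell types moved in the same comparison. Of the oligodendrocyte lineage markers, 4 of 7 were called lower with vector (Cspg4, Olig1, Pdgfra and Sox10), and the summed level of the 7 was 195 to 205 CPM in NT and 133 to 151 with vector; Sox10 was at 0 in all 3 vector libraries. Proliferation markers were lower for 3 of 6 (16.9 to 32.9 CPM summed in NT, 2.64 to 6.05 with vector), astrocyte markers for 1 of 6 (Slc1a2; 1324 to 1573 CPM in NT, 896 to 1228 with vector) and microglia markers for 1 of 3 tested (Csf1r; 6.61 to 7.60 CPM in NT, 3.55 to 3.82 with vector). None of 4 fibroblast and vessel markers tested and none of 8 neuron markers was called. In the resting WT addback these sums were 109 to 135 CPM for the oligodendrocyte lineage, 5.22 to 6.50 for proliferation, 859 to 1049 for astrocytes and 5.98 to 8.63 for microglia, and Chd6 stood at 117 and 105 CPM. The part of other cell types in the values of Chd6 was not tested.

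**Figure D4:**
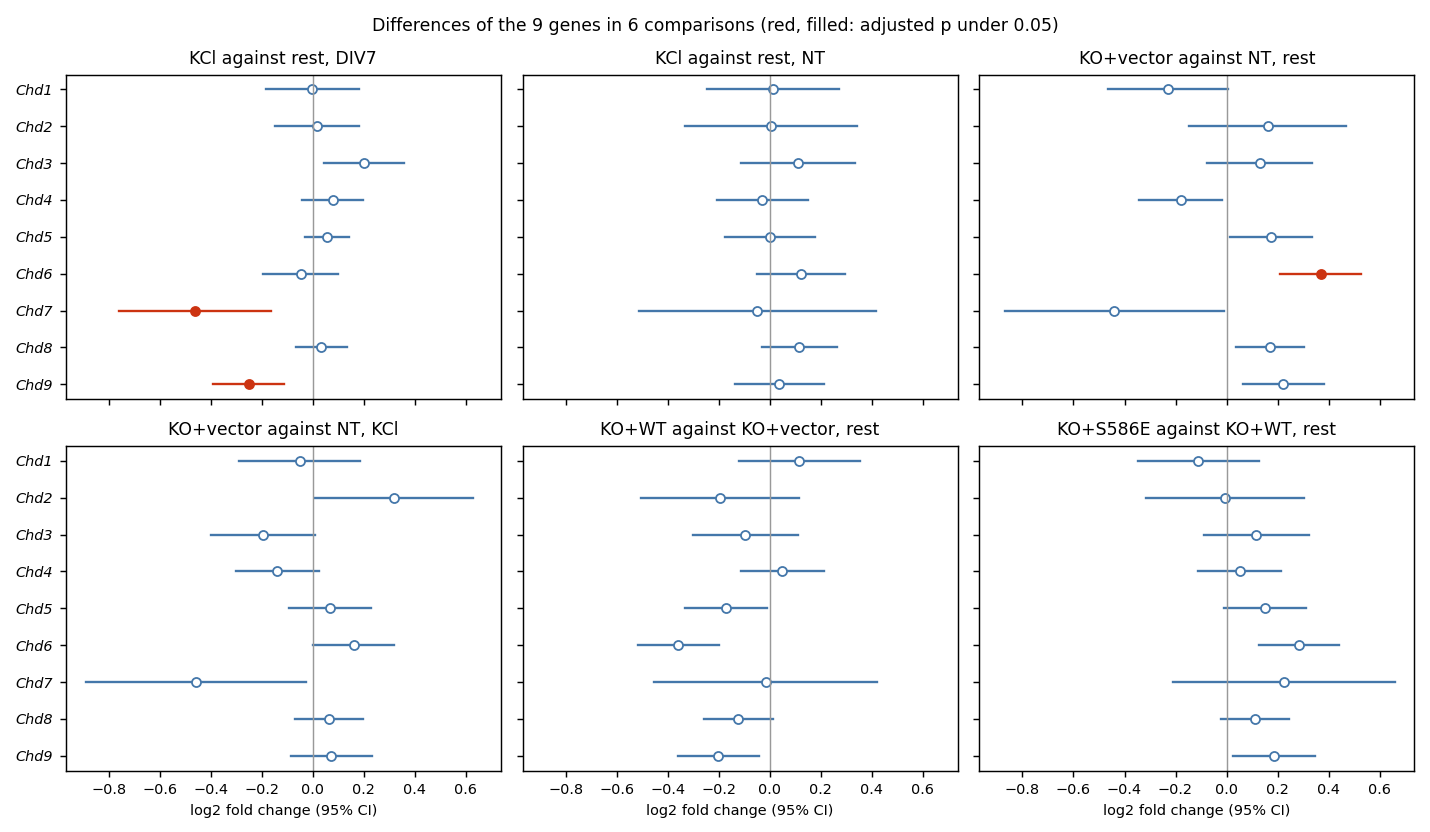
Log2 fold change (x axis, point) with its 95% interval (line) for the 9 genes in 6 comparisons; red filled points passed an adjusted p of 0.05. Chd6 is to the right in both comparisons against NT (0.37 at rest, 0.16 with KCl) and to the left in the WT addback against vector (-0.36), while Chd7 and Chd9 are to the left with KCl at DIV7.

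The sequence upstream of Chd6 is shown because Chd6 is the member called on Smarcc2 loss at rest, a call that did not hold under every setting. It is RefSeq's promoter window on GRCm38.p6, chr2:161109087-161109336 on the minus strand, given for the 250 bases before RefSeq's start of the gene, which lies a few bases upstream of the GENCODE start given above.
Chd6 upstream: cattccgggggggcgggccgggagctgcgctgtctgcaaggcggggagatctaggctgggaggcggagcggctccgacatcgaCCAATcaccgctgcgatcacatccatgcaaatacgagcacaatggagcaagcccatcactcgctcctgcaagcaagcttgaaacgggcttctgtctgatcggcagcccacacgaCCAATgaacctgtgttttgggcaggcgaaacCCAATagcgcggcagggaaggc
The capitals mark CCAAT, which occurred 3 times. Searched on both strands, CCAAT occurred at least once in 33.9% of 32851 such windows and at least 3 times in 2.79%. GGGCGG occurred in it, as in 32.7% of windows. TGANTCA, the AP-1 motif, and TGACGTCA, the CRE, did not occur in it and were in 6.75% and 1.55% of windows. RefSeq's table held such windows for 5 of the 9 members.

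With KCl, the difference between vector and NT cultures was smaller for Chd6 and was not called. Chd6 stood at 115 and 125 CPM in NT and 132, 132 and 138 CPM with vector (log2 fold change 0.16, 95% interval 0.0024 to 0.32, adjusted p = 0.295, edgeR). The groups did not overlap. The change of this difference with KCl, -0.21 (95% interval -0.43 to 0.01), was not called. Chd2 (0.32, adjusted p = 0.289, edgeR) and Chd7 (-0.46, adjusted p = 0.270, edgeR) also had unadjusted p-values under 0.05, where 2.67% of all genes were called and no member by either tool. Chd2 stood at 69.9 and 62.5 CPM in NT and 72.3, 81.2 and 94.5 CPM with vector, without overlap. Chd5 also lay wholly higher with vector, whereas Chd3, Chd4 and Chd7 lay wholly lower. How many of all genes separate in this comparison was not counted, so this is a description only.

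With wild-type Smarcc2 added back, the level of Chd6 lay close to that of the NT libraries, and its difference from vector did not pass after adjustment. Chd6 stood at 117 and 105 CPM in the resting WT addback, below all 3 vector libraries (log2 fold change -0.36, SE 0.0754, 95% interval -0.52 to -0.20, unadjusted p = 1.49e-04, adjusted p = 0.109, edgeR). Only 0.0143% of the genes passed in edgeR in this comparison, against 178 genes in DESeq2, which also called Chd6 (adjusted p = 0.00442), the 1 of 12 alternative settings that passed. Against NT the WT addback differed by 0.01 (95% interval -0.16 to 0.18), with 0.105% of genes and no member called by edgeR or DESeq2. The vector libraries serve in both the loss and the addback comparison, so these are not independent measurements.

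Chd9, Chd5 and Chd8 did not pass in this comparison either. Chd9 was at 81.4 and 80.5 CPM in the resting WT addback, below the vector libraries (-0.20, adjusted p = 0.325, edgeR). Chd5 was at 243 and 235 CPM, also below them (-0.17, adjusted p = 0.419, edgeR). Chd8 was at 176 and 169 CPM, below them as well (-0.12, adjusted p = 0.502, edgeR). Set against resting NT, the resting WT addback lay wholly lower for Chd1 (-0.11), Chd4 (-0.13) and Chd7 (-0.46) and wholly higher for Chd8 (0.05). None of these 4 was called (adjusted p 0.650 to 0.944, edgeR). How many of all genes separate between 2 and 2 libraries was not counted, so this is a description only. With KCl, 0.00955% of genes were called between WT addback and vector and no member by either tool. Chd6 then stood at 114, 122 and 127 CPM in the WT addback (-0.15), and Chd8 at 169, 175 and 169 CPM against 184, 198 and 184 CPM (-0.14). Both had adjusted p = 0.999 in edgeR. Against NT with KCl (0.201% of genes called), Chd3 had the lowest adjusted p of the members in the WT addback (-0.21, adjusted p = 0.442, edgeR), and none was called by either tool.

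With the S586E form, which puts a negative charge in the place of the serine, Chd6 was called higher than in NT. At rest it stood at 135, 135 and 136 CPM with S586E, above both NT and both WT addback libraries and below the 3 vector libraries. The log2 fold change against NT was 0.29 (SE 0.0752, adjusted p = 0.0429, edgeR). Chd6 was the only member called among 9, where 2.78% of genes were called and 1.04% were called higher. This call passed under 4 of 12 alternative settings and was lost when any 1 of the 5 libraries was left out (adjusted p 0.0828 to 0.615). With length offsets the log2 fold change was 0.14 (adjusted p = 0.635, edgeR). In the same comparison 3 of 7 oligodendrocyte lineage markers and 2 of 6 proliferation markers were called lower, with sums of 140 to 162 CPM and 4.42 to 5.60 CPM, and their part in the value of Chd6 was not tested.

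Against the WT addback, the difference of S586E for Chd6 was 0.28 (95% interval 0.13 to 0.44, unadjusted p = 0.00133, adjusted p = 0.141, edgeR). No gene passed this comparison in edgeR (0% of genes; 2696 at an unadjusted p under 0.05), whereas DESeq2 called 319 genes and among them Chd6 (adjusted p = 0.0204), the 1 of 12 alternative settings that passed. With length offsets the difference was 0.0995 (adjusted p = 0.796, edgeR). Chd9 also lay above both NT and both WT addback libraries, with 92.7, 95.9 and 87.7 CPM with S586E (0.19 against the WT addback, adjusted p = 0.308, and 0.21 against NT, adjusted p = 0.152, edgeR). So did Chd5 at 254, 267 and 274 CPM (0.15 against the WT addback, adjusted p = 0.427, edgeR). Chd8 did the same at 189, 190 and 180 CPM (0.11, adjusted p = 0.476, edgeR). Chd1 lay below both NT libraries but overlapped the WT addback. Against vector, S586E differed by -0.07 for Chd6 (95% interval -0.21 to 0.07), and no member was called by either tool where 0.0191% of genes were. Added Smarcc2 RNA was higher with S586E than in the WT addback, as given above, and its part in these values was not tested.

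The S586A form, which cannot be phosphorylated at this serine, was measured with KCl only and cannot be set against S586E in the same state. No member was called in any comparison with it, by edgeR or DESeq2. Chd6 stood at 124 and 109 CPM, overlapping the depolarized WT addback (-0.05, 95% interval -0.21 to 0.10) and below the vector libraries (-0.20, adjusted p = 0.269, edgeR). Chd9 stood at 77.9 and 69.7 CPM, below all 3 vector libraries with KCl (-0.22, adjusted p = 0.242, edgeR). Chd1, a remodeller of the first subfamily, stood at 23.7 and 19.3 CPM against 28.8, 24.2 and 24.4 CPM in the WT addback (-0.26, adjusted p = 0.556, edgeR). Chd7 stood at 9.56 and 7.41 CPM against 10.9 and 14.1 CPM in NT (-0.56, adjusted p = 0.338, edgeR). Of all genes, 0% were called against the WT addback (1823 at an unadjusted p under 0.05, and 19 called by DESeq2), 0.00955% against vector and 0.430% against NT.

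Chd6 and Chd9 varied together across libraries. Over the 20 DIV18 libraries the Pearson correlation of their log2 levels was 0.82, of Chd6 with Chd8 0.77 and of Chd5 with Chd6 0.71, whereas Chd2 with Chd3 gave -0.63 and Chd1 with Chd5 -0.61. These libraries share groups, normalisation and culture, so the values describe the data set only. Among 11227 genes outside the family, the one with the most similar pattern was Unc5c for Chd6 (0.93), Mbd5 for Chd9 (0.91), Trp53bp1 for Chd8 (0.84), Fzd3 for Chd7 (0.77), Pcdh1 for Chd5 (0.80), Ppfia4 for Chd4 (0.89), Cplx2 for Chd3 (0.95), N4bp2 for Chd2 (0.88) and Gpr137c for Chd1 (0.90). Between the group means at DIV18, levels differed by a factor of 1.13 for Chd4 and Chd8 and by up to 1.29 for Chd2 and Chd6 and 1.53 for Chd7, the member with the lowest counts.

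Genes of partner proteins were read against the share of all genes called in each comparison. Of 12 NuRD subunit genes, Cdk2ap1 alone was called with KCl at DIV7 (0.38 higher on the log2 scale), where 7.34% of all genes were called higher, and Gatad2a alone on Smarcc2 loss at rest (-0.51; 34.3 and 42.2 CPM in NT, 26.3 to 27.6 CPM with vector), where 3.77% of all genes were called lower. None of 3 genes of the ChAHP complex, in which Chd4 joins Adnp and Cbx proteins, none of 7 elongation factor genes and none of 3 genes of the H3K4 methyltransferase core was called in any comparison. Of 13 other SNF2-type remodellers, 4 were called higher with KCl at DIV7, beside the 7.34% of all genes. Smarca5, the ISWI motor, rose from 67.0 and 68.5 CPM to 93.2 and 95.5 CPM (0.48, adjusted p = 0.00167, edgeR), and its response at DIV7 exceeded that of NT at DIV18 by 0.55 (adjusted p = 0.0492, edgeR). Hells rose by 1.19, and Atrx and Btaf1 by 0.24 each. On Smarcc2 loss at rest Atrx alone was called (0.29 higher). With KCl at DIV7 the median log2 fold changes were 0.10 for NuRD, 0.14 for the other remodellers, 0.10 for ChAHP, 0.09 for elongation factors and -0.03 for the H3K4 core, beside -0.0014 for all genes. On Smarcc2 loss at rest they were -0.09, -0.01, -0.05, 0.07 and 0.18 in the same order, beside 0.02 for all genes.

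1810026B05Rik, a long non-coding RNA gene also known as Chaserr, lies beside Chd2 on the same strand (chr7:73539203-73558395, minus) and its annotated span overlaps the 5′ end of Chd2 (chr7:73426638-73541830), so that some reads could belong to either gene. It is known as a repressor of Chd2 in cis. It stood at 8.84 and 8.72 CPM in resting NT libraries and at 12.9, 11.98 and 14.5 CPM with vector, without overlap, but was not called (0.58, adjusted p = 0.112, edgeR). Chd2 stood at 58.6 and 73.4 CPM and at 64.2, 72.0 and 85.2 CPM in the same libraries, which overlapped.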

How the data were processed

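Each library's deposited table holds, per the file headers, 1 row per transcript with length, effective length, estimated count and TPM. Kallisto, cutadapt and FastQC are named in the submitters' processing notes; versions, genome build and annotation are not given in the sources used here. The estimated counts deposited by the authors are reads assigned to transcripts and need not be whole. The TPM values deposited by the authors are those counts scaled by effective length to a fixed library sum, and they were used for shares between genes. Effective lengths deposited by the authors served for length offsets only. Of 142552 transcripts, 141429 (99.2%) matched GENCODE M21 on GRCm38; the 1123 unmatched held at most 0.467% of a library's counts.

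The transcripts' estimated counts were added up by gene, then rounded. EdgeR 4.0.16 (R 4.3.3, limma 3.58.1) was used with TMM, filterByExpr, the quasi-likelihood F test (two-sided) and Benjamini-Hochberg adjustment over all genes. DIV7 was fitted alone (19822 genes, 2 residual degrees of freedom) and DIV18 in 8 groups (20940 genes, 12); the difference between ages used all 24 libraries (22459 genes). Standard errors came from the F statistic. The code was tested on simulated data. In all, 19 contrasts were tested. Alternatives were median-of-ratios size factors, no filter, length offsets, protein-coding transcripts only, DESeq2 1.42.0, only the groups compared, the replicate block and leaving out each library; shares from transcripts of at least 1000 bases were added after the values were seen, as were the promoter motifs chosen.

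By the rule for named genes, all 9 members are named, called genes of the partner, marker and early-response lists may be named or given by count, and for each member the gene with the highest correlation of log2(CPM + 1) among genes with a mean of at least 5 CPM is named. Members and lists were chosen with earlier results of these data known.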

Additional observations from a re-analysis of the deposited data

How the results depend on the processing

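Over all comparisons and settings, the number of members called stayed within 1.5 times the main number in 222 recomputations and moved in 18. Most of the 222 were comparisons with 0 called that stayed at 0, so this count does not measure how firm the calls are. Members were called only for KCl at DIV7, Smarcc2 loss at rest and S586E against NT. A swap of 1 called member for another also counted as unchanged. For KCl at DIV7 (2 called), 1 was called with median-of-ratios size factors, 1 with length offsets and 1 with protein-coding transcripts only, and 0 to 2 when a library was left out. For Smarcc2 loss at rest (1 called), 2 were called with protein-coding transcripts only, Chd8 being the second (0.22, adjusted p = 0.0254, edgeR), 0 with only the groups compared, and 0 to 1 when a library was left out; with length offsets the 1 called was Chd9 (0.43, adjusted p = 0.0164, edgeR), not Chd6. For S586E against NT (1 called), 0 were called without the filter, 0 with only the groups compared and 0 whichever library was left out; with length offsets Chd9 was called (0.42, adjusted p = 0.0400, edgeR) in place of Chd6. For the WT addback against vector and for S586E against the WT addback at rest (0 called each), DESeq2 called 1, Chd6. Single values were followed only for members with an unadjusted p under 0.05 in the main fit or a call in some setting. Of these, 1 reversed, Chd9 with KCl at DIV7 under length offsets (0.0699, adjusted p = 0.782, edgeR). Another 22 lost a call, 11 gained one and 348 did neither, and the cause was not tested. Values outside this selection also changed sign, such as Chd2 on Smarcc2 loss at rest (0.16 in the main fit, -0.08 at the lowest). Replicate numbers were not treated as pairs, since no comparison with 3 pairs had every correlation of same-numbered libraries above 0.1. These correlations were all positive. They ran from 0.0934 to 0.271 for S586E against vector and from 0.0939 to 0.212 for the WT addback against vector with KCl. In both of these, each library was closest to its own number. For KCl against rest in the vector cultures they ran from 0.0616 to 0.218, and this was not so. Replicate number was also fitted as a block, which at DIV7 leaves fewer residual degrees of freedom than the 2 of the main fit. With this block, 3 members were called at DIV7, Chd3 joining the other 2 (0.20, adjusted p = 8.50e-05, edgeR). Chd6 on Smarcc2 loss at rest then had an adjusted p of 0.00664, and the block changed no other call. Chd7, with 128 to 344 counts a library at DIV18, is the member that depth limits most.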
